A study of Sus scrofa with 16 samples.

Results

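The miR-199 and miR-214 entries of the porcine ovary miRNA table were ssc-miR-199a-5p, ssc-miR-199b-5p and ssc-miR-214. They were taken by name, as every entry called miR-199a, miR-199b or miR-214, and made up 3 of the 216 known miRNAs and 3 of all 1940 entries in the table. The rule uses names and no measured value. Small RNA was sequenced from ovaries of 16 Canadian Large White sows, with 1 library per sow and 4 sows in each of 4 groups. LH and LL sows, of high and low fecundity, were in the luteal phase on day 14 of the cycle, and FH and FL sows, of high and low fecundity, were in the follicular phase on day 20. Total RNA was extracted from ovarian tissue, so a value is a mixture over the cells of the sample, and fewer cells of a type cannot be told apart from less of a miRNA in each cell.

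miRNAs are short RNAs, cut from hairpin transcripts, that pair with messenger RNAs through a seed near their 5′ end and lower the output of those messengers. In mammals miR-199a and miR-214 can be made from a common transcript, antisense to the dynamin gene DNM3, which is known from fibroblasts and other mesenchymal cells. The 5p arms of miR-199a and miR-199b share a seed and are known to repress IKBKB and HIF1A. The RefSeq annotation of Sscrofa11.1, a later build than the Sscrofa10.2 genome used for the deposited table, places the hairpins MIR214 and MIR199A-1 within DNM3 with no gene between them. MIR199A-2 lies within DNM2 and MIR199B within DNM1, 2 further dynamin genes.

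Total counts ran from 8998496 to 37194836 per library, and correlations between sows of a group, taken across 172 known miRNAs, from 0.820 to 0.984. Levels are given as CPM, counts scaled to a common library size, after TMM normalization, which scales each library so that most miRNAs keep the same level. The TMM factors of the LL libraries, at 1.19 to 1.74, were above most others, which lay at 0.851 to 1.07 (LH), 0.670 to 0.942 (FH) and 0.741 to 1.23 (FL), so the choice of scaling moves the comparisons with LL the most. The gonadal miR-202-5p was present in every group, with group means of 2203 CPM (LL), 1930 CPM (LH), 802 CPM (FH) and 323 CPM (FL). A word such as stromal in the name of these miRNAs was not testable in tissue RNA.

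miR-199a-5p was one of the most abundant miRNAs of the ovary in all 4 groups. It held 1.67 to 5.86% of the counts of a library and ranked between 5 and 13 among the known miRNAs. The entry for ssc-miR-199b-5p had almost the same count in each library. Its count was lower than that of miR-199a-5p in 16 of 16 libraries, by 33 to 762 counts or 0.0140 to 0.0587%. This gap was 0.0480 to 0.462 of the standard deviation that 2 counts of separate reads would have. Whether the 2 entries share reads was not tested. With counts this close, the 2 entries could not be used as separate measurements. They are treated below as 1 quantity, described by miR-199a-5p, and the log2 fold changes of miR-199b-5p were the same to 2 decimals.

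Such doublets were found elsewhere in the table. Among known miRNAs with at least 100 counts in each library, 5 pairs had counts within 1% of each other in all libraries, and in 3 of these (miR-143, miR-221 and miR-296) the 3p and the 5p entries were identical. Below that level the 3p and 5p entries of miR-7140, with 163 counts each in all, were also identical. No 3p entry of miR-199 is among the 216 known miRNAs, and ssc-miR-214 carries no arm in its name. How a read was given to an entry is not given in the sources used here, so the arm and the paralog behind the miR-199 counts were not tested.

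miR-214 was found at a level far below that of miR-199a-5p. It held 0.0524 to 0.173% of the counts of a library and ranked between 38 and 81 among the known miRNAs. Counts ran from 7430 to 54717 for miR-214 and from 236019 to 1765913 for miR-199a-5p. Counting error was thus at most 1.16% and 0.206% of a value, far below the spread between sows. Reads were amplified without molecular identifiers, and these limits cover counting error only.

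In the luteal phase, miR-199a-5p stood at 36178, 63463, 29241 and 32929 CPM in LH1 to LH4. It stood at 10143, 12172, 22103 and 43612 CPM in LL1 to LL4. LL1, LL2 and LL3 were below every LH sow, whereas LL4 was above 3 of the 4 LH sows. LL had the widest spread of all groups, with a coefficient of variation of 69.6%. The place of LL3 depended on TMM: as a share of library counts it was 3.34%, above LH3 (2.49%) and LH4 (3.01%). In the follicular phase the level was 39600, 42757, 58700 and 64145 CPM in FH1 to FH4. It was 44178, 26037, 51615 and 16847 CPM in FL1 to FL4. FL2 and FL4 were below every FH sow and FL1 and FL3 lay within the FH range, while FH was the most even group, with a coefficient of variation of 23.3%. Here too TMM mattered, since by share of library counts FL2 (2.97%) was above FH2 (2.87%).

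The means fell in the order FH, LH, FL and LL. They were 51300 ± 11967 CPM in FH, 40453 ± 15600 CPM in LH, 34669 ± 16018 CPM in FL and 22008 ± 15322 CPM in LL (SD, n = 4 sows each). Neighbouring groups in this order differed by less than the standard deviation of either group. The highest library, FH4, held 6.32 times the level of the lowest, LL1.

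miR-214 stood at 945, 1193, 1107 and 654 CPM in LH1 to LH4 and at 439, 383, 878 and 893 CPM in LL1 to LL4. In these TMM-normalized levels LL1 and LL2 were the lowest of all 16 libraries, as they were for miR-199a-5p, and LL3 and LL4 lay within the LH range. As a share of library counts, LH4 (0.0597%) was below LL1 (0.0764%), and LL3 (0.133%) was above every LH sow (at most 0.110%). The follicular levels were 1152, 1406, 1552 and 1988 CPM in FH1 to FH4 and 1312, 1519, 2059 and 782 CPM in FL1 to FL4. FL held both the highest follicular sow, FL3, and the lowest, FL4, with FH between them. By share of library counts FL2 (0.173%) was the highest follicular sow and FH2 (0.0943%) the lowest.

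For miR-214 the means fell in the order FH, FL, LH and LL. They were 1525 ± 350 CPM in FH, 1418 ± 528 CPM in FL, 975 ± 237 CPM in LH and 648 ± 275 CPM in LL (SD, n = 4 sows each). FH and FL differed by less than the spread of either group. LH and LL differed by 326 CPM, more than either standard deviation, but their sows overlapped. This order held with TMM. As mean shares of library counts it was FL (0.131%), FH (0.119%), LL (0.0918%) and LH (0.0911%).

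**Figure D1:**
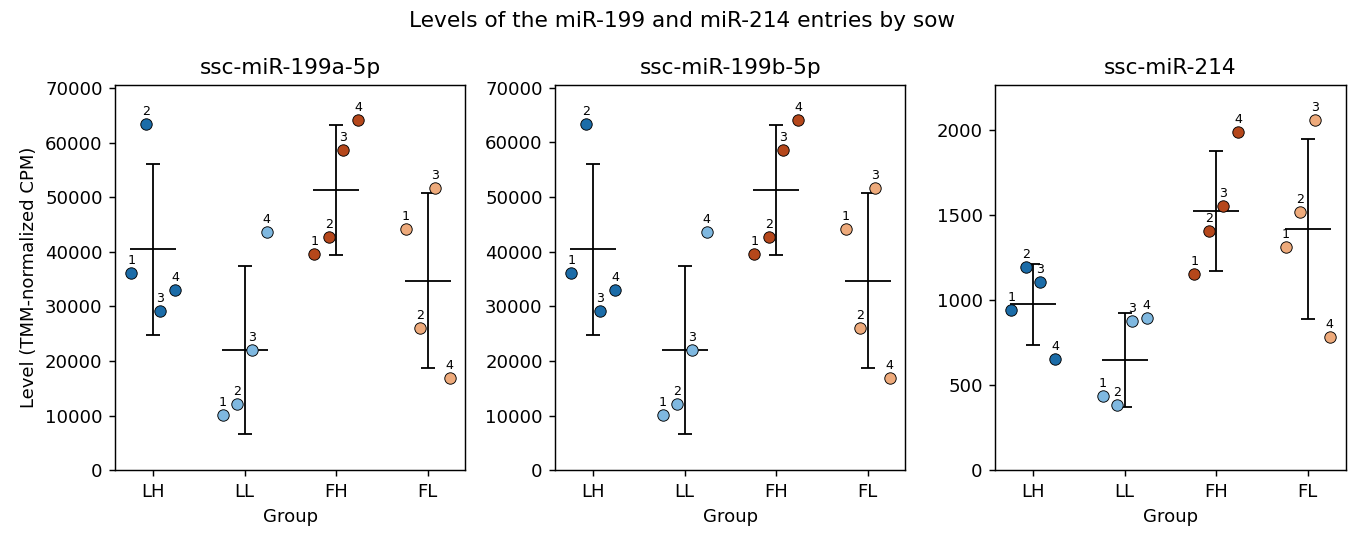
Level of each entry in TMM-normalized CPM (linear axis from 0) by group, with 1 point per sow numbered as in the labels, a horizontal bar at the mean and error bars of 1 SD (n = 4). The panels of miR-199a-5p and miR-199b-5p look the same; LL1 and LL2 are lowest in all 3 panels, and LL4 sits at 43612 CPM for miR-199a-5p.

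The comparison of low with high fecundity asked whether ovarian miRNAs differ with the fecundity of the sow within a phase. A miRNA was called by the threshold of the study, an unadjusted P under 0.05 with a change of at least 2-fold, in edgeR's quasi-likelihood test, and the adjusted p (Benjamini-Hochberg) covers all miRNAs tested. In the luteal phase none of the 3 entries was called in LL over LH, against 13% of the 362 miRNAs tested. miR-199a-5p differed by -0.88 on the log2 scale (SE 0.50, adjusted p = 0.405, edgeR), or 1.85-fold lower in LL. miR-214 differed by -0.56 (SE 0.35, adjusted p = 0.454, edgeR). Exact two-sided permutation tests gave p = 0.143 for miR-199a-5p and p = 0.171 for miR-214, where the smallest p possible for 4 against 4 sows is 0.0286. The fold of miR-199a-5p was decided by LL4, without which it was -1.50 (adjusted p = 0.167, edgeR) and past the threshold. With parity as a covariate it was -1.83 and with the percentage of reads kept in cleaning as a covariate it was -0.44, neither past the threshold.

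In the follicular phase none of the entries was called in FL over FH, against 6.19% of the 307 miRNAs tested. miR-199a-5p differed by -0.54 (SE 0.42, adjusted p = 0.704, edgeR) and miR-214 by -0.12 (SE 0.34, adjusted p = 0.903, edgeR). The exact permutation tests gave p = 0.171 and p = 0.657. The difference between the phases in the effect of fecundity was -0.31 for miR-199a-5p (SE 0.64, adjusted p = 0.931, edgeR) and -0.48 for miR-214 (SE 0.49, adjusted p = 0.739, edgeR), and no entry was called, against 13.3% of 445 miRNAs. Neither miRNA passed a test of fecundity, and the SE of miR-199a-5p in the luteal phase left room for a 2-fold change. In TMM-normalized CPM the LH and LL means of both lay farther apart than the SD of either group. As shares of library counts the LH and LL means of miR-199a-5p were 3.80% and 2.98% (SD 1.48 and 1.64). Those of miR-214 were 0.0911% and 0.0918%.

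Between the phases, miR-214 was lower in luteal than in follicular ovaries, with both fecundity classes averaged. The 8 luteal sows lay at 383 to 1193 CPM (median 885) and the 8 follicular sows at 782 to 2059 CPM (median 1463). The 2 phases overlapped: 3 luteal sows were below every follicular sow and 6 follicular sows were above every luteal sow. As shares of library counts, only FH4 (0.147%), FL2 (0.173%) and FL3 (0.157%) were above every luteal sow, the highest being LL3 (0.133%). LH3 (0.0941%), LH4, LL1 and LL2 were below every follicular sow, the lowest being FH2 (0.0943%). The log2 fold change of luteal over follicular was -0.89 (SE 0.25, adjusted p = 0.0246, edgeR), so miR-214 passed the adjusted test, as 8.54% of the 445 miRNAs did by being lower, but not the 2-fold limit. By the threshold of the study, 23.4% of the miRNAs were called and none of the 3 entries. An exact permutation test within fecundity classes gave p = 0.00327, or 0.0490 after adjustment over the 15 tests of the entries, with a smallest possible p of 0.000408. The 15 tests count miR-199a-5p and miR-199b-5p apart, although their counts are almost the same. For miR-199a-5p the change was -0.50 (SE 0.32, adjusted p = 0.289, edgeR; exact permutation p = 0.101), which did not pass.

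The adjusted test of miR-214 between the phases stood close to its limit. With 1 sow left out at a time, the fold change ran from -1.005 to -0.784 and the adjusted p from 0.0157 to 0.0866 (edgeR), under 0.05 in 5 of 16 fits. In the other settings the adjusted p was under 0.05 in 8 of 10 (0.00203 to 0.311, edgeR or DESeq2). It was above 0.05 with library totals and without a filter. With libraries scaled by their total alone the fold change was -0.45 (adjusted p = 0.170, edgeR; exact permutation p = 0.0453), and without a filter on low counts the adjusted p was 0.311.

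Within fecundity classes, which share their sows with the comparison above, miR-214 was called in LL over FL. The change was -1.13 (SE 0.35, adjusted p = 0.0439, edgeR), or 2.19-fold lower in LL. The adjusted p stayed under 0.05 in 1 of 16 fits with 1 sow left out (0.0282 to 0.164) and in 3 of 10 other settings (0.00848 to 0.308, edgeR or DESeq2). This made 1 of the 3 entries, against 30.1% of the 445 miRNAs called in either direction, 16.4% called lower and 9.44% lower by adjusted p. LL1 and LL2 were below every FL sow, and LL3 and LL4 were above FL4 only. As a share of library counts, LL3 (0.133%) and LL4 (0.105%) were also above FL1 (0.0971%). Without LL1 the change was -0.98 and without LL2 -0.93, both short of 2-fold, and by library total alone it was -0.51 and not called. The exact permutation test gave p = 0.0857.

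In LH over FH, where 12.8% of the miRNAs were called, miR-214 differed by -0.65 (SE 0.35, adjusted p = 0.353, edgeR; exact permutation p = 0.0571). miR-199a-5p differed by -0.34 in LH over FH (adjusted p = 0.800, edgeR) and by -0.66 in LL over FL (SE 0.46, adjusted p = 0.365, edgeR). Again LL4 decided the latter, which without it was -1.25 (adjusted p = 0.0968, edgeR) and past the threshold.

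TMM and library totals gave different values because they moved the median of all miRNAs. Scaling by library total raised that median by 0.58 in LL over LH, 0.32 in FL over FH, 0.38 in luteal over follicular, 0.21 in LH over FH, 0.53 in LL over FL and 0.29 in the interaction, on the log2 scale. The direction of miR-214 turned in both comparisons of fecundity, to 0.01 in LL over LH and 0.14 in FL over FH, and that of miR-199a-5p turned in the interaction, to 0.05. Relative to the median of all miRNAs, miR-214 between the phases stood at -1.06 with TMM and at -1.003 with library totals. In LL over FL these values were -1.26 and -1.17. A change of scaling moves an entry and the median together, so the closeness of the 2 values was built in and tests nothing about miR-214. The calls over all miRNAs also shifted, from 24 higher and 23 lower to 57 and 11 in LL over LH, from 58 and 46 to 89 and 26 between the phases, from 61 and 73 to 88 and 49 in LL over FL, and from 18 and 41 to 26 and 29 in the interaction.

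**Figure D2:**
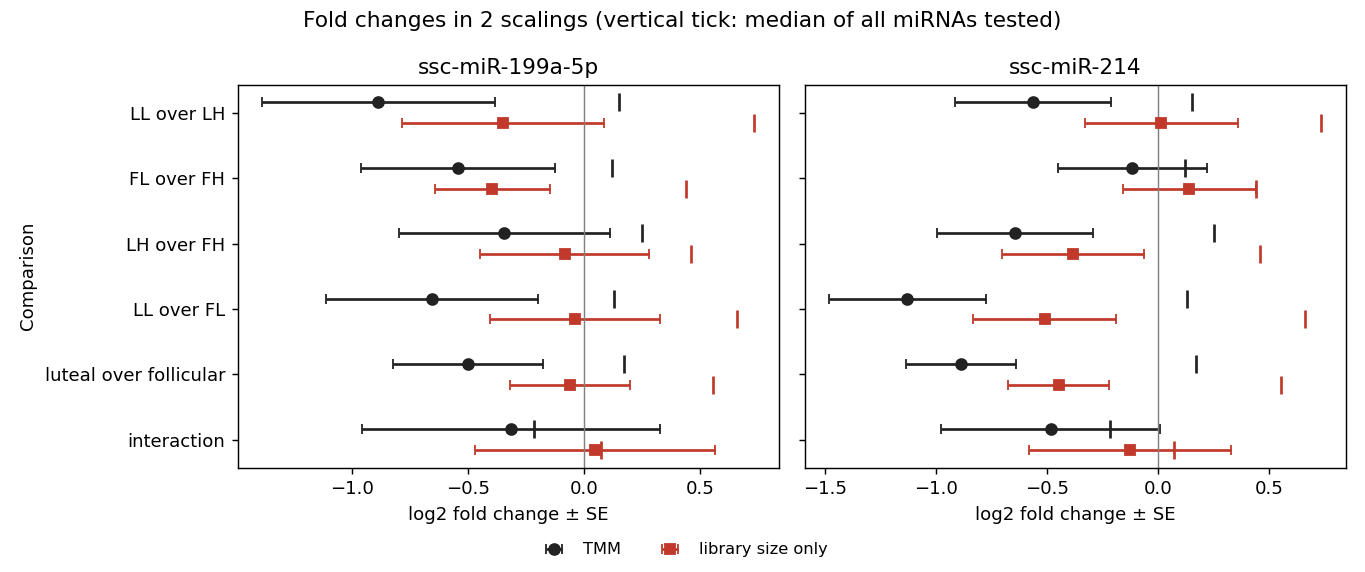
Log2 fold change with its SE (horizontal axis) of miR-199a-5p and miR-214 in 6 comparisons, with TMM (circles) and with library totals only (squares), and a vertical tick at the median of all miRNAs tested. Library totals move points and ticks to the right together; miR-214 crosses 0 in LL over LH and FL over FH, miR-199a-5p crosses 0 in the interaction, and luteal over follicular is -0.89 and -0.45 for miR-214.

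A ratio within a library needs no scaling between libraries. There were 17.1 to 53.2 reads of miR-199a-5p per read of miR-214, a ratio of reads and not of molecules. The group means were 24.4 ± 7.01 in FL, 33.7 ± 3.18 in FH, 32.2 ± 11.7 in LL and 42.1 ± 12.3 in LH (SD, n = 4 sows each). LH2, at 53.2, held the largest excess of miR-199a-5p and FL2, at 17.1, the smallest, and the FH sows kept within 30.4 to 37.8. The log2 ratio of miR-214 over miR-199a-5p was higher by 0.40 in LL than in LH (exact permutation p = 0.257) and higher by 0.51 in FL than in FH (p = 0.0857, exact permutation test). The difference of luteal from follicular sows was -0.33 (p = 0.108, exact permutation test). No adjusted p among the 10 ratio tests was below 0.269, so no difference in ratio passed, although the FL and FH means lay farther apart than the SD of either group. Leaving out FL1 brought the FL and FH ratios apart, with a difference of 0.68 (exact permutation p = 0.0286), the smallest p that 3 against 4 sows allow being 0.0286.

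Across sows the 2 miRNAs moved together. With each group centred on its own mean, the log2 levels of miR-199a-5p and miR-214 gave Pearson's r = 0.809 over 16 sows (permutation p = 0.00016, adjusted 0.00021) and Spearman's rho = 0.768 (permutation p = 0.00075, adjusted 0.00103), with p-values adjusted over 3 pairs of entries. Without LH2 and LL4, the sows farthest from the median of the centred levels of miR-199a-5p, r was 0.789, and within a phase r was 0.786 (luteal sows) and 0.849 (follicular sows). Both levels share the library and its TMM factor. The permutations ran over all 16 sows and not within groups. They make no allowance for the 4 group means removed, so the permutation p-values may be too small. Between miR-199a-5p and miR-199b-5p r was 1.

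**Figure D3:**
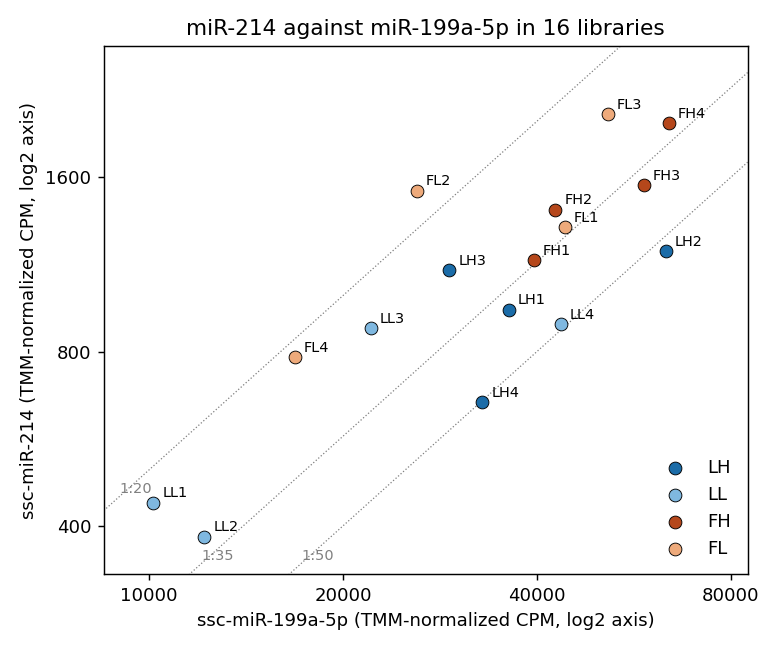
Level of miR-214 against that of miR-199a-5p, both in TMM-normalized CPM on log2 axes, with 1 point per sow coloured by group and dotted lines of constant ratio. The sows run along the lines (r = 0.809 within groups), from LL1 and LL2 at the lower left to FH4 and FL3 at the upper right, with ratios between 17.1 and 53.2.

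The known miRNAs whose log2 levels followed miR-199a-5p most closely over the 16 libraries, out of 169 with a mean of at least 10 CPM, were miR-195 (r = 0.952), miR-26a (r = 0.912) and miR-10b (r = 0.874). miR-195 is a member of the miR-15 and miR-16 seed family, miR-26a is known to repress EZH2, and miR-10b is encoded within the HOXD cluster. The median r of the 169 with miR-199a-5p was 0.0452. miR-195 had the same low group, with 416 ± 217 CPM in LL against 1016 ± 385 CPM in LH, 1355 ± 491 CPM in FH and 872 ± 414 CPM in FL (SD, n = 4 sows each). Levels of miR-26a averaged 28789 CPM in LL, 62078 CPM in LH, 74716 CPM in FL and 88046 CPM in FH. For miR-10b they were 10559, 18455, 18619 and 22862 CPM in the same order.

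For miR-214 the most similar were miR-130a (r = 0.900), miR-140-5p (r = 0.878) and let-7c (r = 0.857), against a median r of 0.00604. miR-130a is known to repress PPARG, miR-140-5p is encoded within WWP2 and abundant in cartilage, and let-7c belongs to the let-7 family. let-7c averaged 11150 CPM in LL, 20444 CPM in LH, 36788 CPM in FL and 29287 CPM in FH, and miR-140-5p averaged 5273, 9346, 11102 and 12679 CPM in that order. miR-130a was scarcer, at 37.9, 67.7, 114 and 95.9 CPM. With groups centred, r was 0.922, 0.857 and 0.777 for the 3 that followed miR-199a-5p and 0.798, 0.775 and 0.706 for those that followed miR-214. All these values share libraries and scaling and are given as a description.

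**Figure D4:**
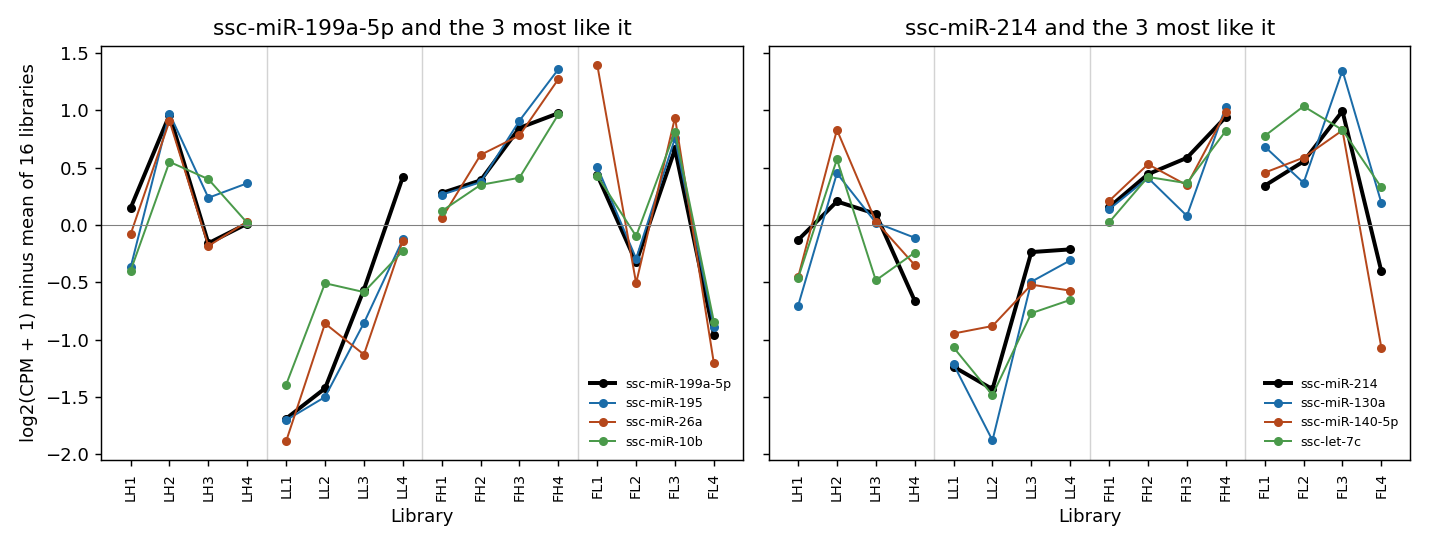
Log2(CPM + 1) of miR-199a-5p (left) and miR-214 (right), in black, and of the 3 known miRNAs most like each, as the deviation from the mean of the 16 libraries, by library in the order of the groups. Lines join sows of a group only to guide the eye; every profile is lowest in LL1 or LL2 except that of miR-140-5p, lowest in FL4, and the r with miR-199a-5p runs from 0.874 to 0.952 and that with miR-214 from 0.857 to 0.900.

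Other miRNAs known from fibroblasts, smooth muscle and mesenchymal cells were taken as a list of 27 entries, 25 of them tested. The list includes miR-143-3p and miR-143-5p, whose identical counts enter each count below as 2 entries. Counts and medians of the list are from fits with TMM and were not taken with library totals. Library totals raised the median of all miRNAs by 0.58 in LL over LH and by 0.53 in LL over FL. The sign and size of the list medians are therefore given for TMM only. In LL over LH none of the 25 was called higher and 3 lower, where 24 higher and 23 lower (13%) were called among all 362 miRNAs, with a median log2 fold change of -0.54 against 0.15 over all miRNAs. The 3 were miR-100 (-1.22, adjusted p = 0.202), miR-99a (-1.81, adjusted p = 0.220) and miR-195 (-1.29, adjusted p = 0.240, edgeR). In FL over FH none was called, against 6.19% of all miRNAs, and the median was -0.15 against 0.12. The most abundant of the list, miR-143-3p, whose miR-143/145 cluster is known from smooth muscle, differed by -0.94 in LL over LH and by -0.49 in FL over FH and was called in neither.

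Between the phases 3 of the 25 were called higher and 7 lower in luteal ovaries, against 58 and 46 (23.4%) of all 445 miRNAs, with a median of -0.66 against 0.17. Those with the smallest P were miR-145-5p (-1.89), miR-29b (-1.38), miR-100 (-1.14) and miR-143 (-1.12), each with an adjusted p of 0.00222 (edgeR). miR-29b, of a family known to repress collagen messengers, averaged 106 CPM in LL, 200.4 CPM in LH, 428 CPM in FL and 336 CPM in FH. By adjusted p 4 were higher and 8 lower, against 40 and 38 of the 445, and miR-99a was among those called lower (-1.10, adjusted p = 0.0377, edgeR).

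In LL over FL 3 of the list were called higher and 10 lower, against 61 and 73 (30.1%) of all 445 miRNAs, with a median of -0.93 against 0.13. miR-145-5p (-2.53), miR-29b (-2.01) and miR-100 (-1.73, adjusted p = 0.00188 for each, edgeR) changed more than miR-214 did in the same comparison, a difference that was not tested. In LH over FH 4 were called higher and 2 lower, against 38 and 19 (12.8%) of all miRNAs, with a median of -0.31 against 0.25, and none passed the adjusted test. miR-493-5p (2.21), miR-21 (1.56) and miR-381 (1.33) were among the higher and miR-497 (-1.50) and miR-145-5p (-1.25) were the lower. In the interaction 1 was called higher and 5 lower, against 18 and 41 (13.3%) of all miRNAs, with a median of -0.63 against -0.22. In each comparison between phases, entries of the list were called in both directions. The medians set beside those of the list cover known and predicted miRNAs, while the list holds known miRNAs only. Over the known miRNAs tested the median was 0.016 in LL over LH, 0.044 in FL over FH and -0.015 between the phases. It was 0.153 in LH over FH, -0.039 in LL over FL and -0.226 in the interaction.

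Markers of other cells moved with the groups as well. The summed level of miR-143-3p and miR-145-5p, for smooth muscle, was 71951 to 91143 CPM in LL, 111488 to 212844 CPM in LH, 170439 to 310982 CPM in FL and 232331 to 444650 CPM in FH. With TMM, LL was thus lowest here as for miR-199a-5p and miR-214, and no LL sow overlapped another group. These sums were not taken by library totals, and the TMM factors of LL, at 1.19 to 1.74, were above most others. The separation is therefore given for TMM only. As a mean share of library counts, miR-214 was not lowest in LL (0.0918%, against 0.0911% in LH). The endothelial miR-126-5p was at 15242 to 26360 CPM in LL, 7751 to 22206 CPM in LH, 2461 to 11048 CPM in FL and 8134 to 11872 CPM in FH, so LL was the group of the highest median and overlapped LH. The 3 gonadal markers summed to 1338 to 3873 CPM in LL, 1213 to 2724 CPM in LH, 75.2 to 601 CPM in FL and 277 to 1306 CPM in FH.

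Leukocyte markers summed to 827 to 1370 CPM in LH and 1489 to 2994 CPM in FL, led by miR-146a-5p, with LL and FH between 1221 and 2070 CPM. Of the 4 leukocyte entries, 1 had no counts in any LH library. In LL over LH miR-146a-5p differed by 0.41, miR-150 by -1.34 and miR-155-5p by -0.15 (log2 scale). None of these passed the adjusted test in edgeR. Erythrocyte markers, led by miR-144, stayed between 32.1 and 186 CPM and neural markers, led by miR-9, between 18.3 and 176 CPM in all libraries. Epithelial markers summed to at most 21828 CPM in LH, 16083 CPM in FL, 1016 CPM in LL and 300.4 CPM in FH. Their medians were 778 CPM in LH, 3845 CPM in FL, 656 CPM in LL and 292 CPM in FH. Of this list miR-34c had the highest mean over all libraries, with 5396 CPM in LH and 5675 CPM in FL. It averaged 28.2 CPM in LL and did not lead the list there. In LL over LH miR-34c, miR-429 and miR-205 were lower (-7.63, -2.53 and -1.27, log2 scale). miR-182 and miR-183 were higher (0.58 and 0.80), and none of the 5 passed the adjusted test in edgeR. Muscle markers, led by miR-1, were 449 to 984 CPM in LL against 2155 to 3256 CPM in LH, 1883 to 4256 CPM in FH and 565 to 3034 CPM in FL. The hepatic miR-122 reached 1363 CPM in FL, with a median of 195 CPM, and 99.5 CPM elsewhere. The part of these cells in the levels of miR-199a-5p and miR-214 was not tested.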

How the data were processed

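Small RNA libraries of 16 sow ovaries were analysed. According to the paper, reads were trimmed with Trimmomatic and mapped to Sscrofa10.2 with Bowtie 2 2.1.0, and miRDeep predicted additional miRNAs. Raw counts per miRNA and library were deposited by the authors with no normalization. How reads were given to entries is not given in the sources used here. The tests were edgeR 4.0.16 quasi-likelihood fits (R 4.3.3) on these counts after TMM and edgeR's filter (count minimum 10, total minimum 15). Comparisons of fecundity used the 8 libraries of a phase, and all others 4 group means over 16 libraries. Exact permutation tests, correlations and likeness used log2(CPM + 1). Alternatives were DESeq2 1.42.0, its size factors in edgeR, library totals only, TMM on known miRNAs, other filters, collapsed identical entries, a replicate block, covariates (parity, percentage of reads kept in cleaning) and each sow left out. The fit was tested on simulated data.

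The entries, the lists of other miRNAs and the tests were chosen with earlier results of these data known. Named miRNAs are the entries, the 3 most correlated with each, and from the list of mesenchymal miRNAs those called (at most 5 by smallest P) and the 3 of highest level, and the highest of each marker list. Further epithelial and leukocyte markers were named after their values were seen. Each library came from a separate sow. Mature sequences were not used here, and predicted entries with miR-199 or miR-214 sequence were not searched. mRNA and lncRNA measurements were not used here.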

Additional observations from a re-analysis of the deposited data

Results flagged for a closer look

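No level or ratio of miR-199a-5p, miR-199b-5p or miR-214 had a sow standing apart from its group by Dixon's test (critical value 0.829 for 4 sows). Of the other miRNAs named, 7 of 68 groups did, where chance gives about 1 in 20. The gap to the nearest sow as a share of the group's range was 0.831 for let-7c in LH, 0.859 for miR-26a in LH, 0.854 for miR-21 in LL, 0.891 for miR-143-3p and for miR-143-5p in FH, 0.930 for miR-497 in FH and 0.862 for miR-29b in FL. miR-143-3p and miR-143-5p hold identical counts and are 1 observation.

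The effect of fecundity differed between the phases past the threshold for 6 miRNAs of the mesenchymal list, and none passed the adjusted test in edgeR. The interaction, LL over LH minus FL over FH on the log2 scale, was -1.27 for miR-29b (adjusted p = 0.169, edgeR), -1.17 for miR-100 (adjusted p = 0.169, edgeR), -1.94 for miR-99a (adjusted p = 0.193, edgeR), 1.20 for miR-218 (adjusted p = 0.251, edgeR) and -1.37 for miR-381 (adjusted p = 0.326, edgeR). The sixth, miR-145-5p, at -1.27 (adjusted p = 0.338, edgeR), was outside the limit of 5 named and was added after its value was seen.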

How the results depend on the processing

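Of 186 alternative values of the fold changes of the entries, 180 kept their direction and their side of the threshold. These values count miR-199a-5p and miR-199b-5p apart. Only miR-214 in LL over FL was called in the main fits, so elsewhere the same side means not called again. With library totals only, miR-214 was 0.0129 in LL over LH, 0.14 in FL over FH (0.10 by the exact test) and -0.51 in LL over FL, no longer called, and the interaction was 0.0467 for miR-199a-5p and 0.0468 for miR-199b-5p. With the percentage of reads kept in cleaning (cleaning percentage) as a covariate, miR-214 in FL over FH was 0.0546.

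With 1 sow left out at a time, miR-199a-5p and miR-199b-5p ran from -1.50 to -0.58 in LL over LH, from -1.25 to -0.45 in LL over FL and from -0.92 to 0.0139 (miR-199b-5p 0.0140) in the interaction, and miR-214 from -1.005 to -0.784 between the phases, from -1.36 to -0.93 in LL over FL and from -0.24 to 0.10 in FL over FH. The log2 ratio of miR-214 over miR-199a-5p ran from 0.35 to 0.68 in FL over FH, from -0.43 to -0.22 between the phases and from -0.48 to -0.14 in LH over FH, passing the exact permutation test without FL1 in the first and without LH3 in the other two. That of miR-199b-5p over miR-199a-5p ran from -0.000202 to -0.000108 between the phases and from -0.000202 to -1.35e-05 in LL over FL.

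The number of miRNAs past the threshold was 47 in LL over LH, 158 with no filter, 14 with the cleaning percentage and 33 to 94 with 1 sow left out (94 without LH1, 71 without LL4). It was 19 in FL over FH, 93 with no filter, 4 with the replicate block, 5 with parity, 6 with the cleaning percentage, 37 from a fit of all 16 libraries and 11 to 43 with 1 sow left out (43 without FL1, 30 without FL3, 11 without FL4). With no filter it was 203 between the phases (104), 122 in the interaction (59), 154 in LH over FH (57) and 250 in LL over FL (134). The cause of these changes was not tested.

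Replicate numbers were shared by the groups. Correlations of same-numbered deviations, taken for LH with LL and for FH with FL, ran from -0.298 to 0.174. Pairs across the phases were not examined, and whether sows were matched or handled together by number was not tested. With the replicate block the interaction count was 39, and miR-214 in LL over FL had an adjusted p of 0.0827 (edgeR). The adjusted p of miR-214 in LL over FL was also above 0.05 with TMM on the known miRNAs, identical entries collapsed, parity, the cleaning percentage or no filter (up to 0.308), and was 0.00848 with DESeq2. Scaling by library total under the exact tests was chosen after seeing the data. The search of predicted entries was not run.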
